A study of Mus musculus with 4 samples.

Results

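Liver X receptors (LXR) and the proteins that carry cholesterol and phospholipid out of the liver cell were examined here as a group of 10 genes in the liver of *Usp21* KO and wild-type (WT) mice. The members were taken by gene symbol from the salmon table of transcript abundance, in which each of the 10 symbols matched 1 row among 35739 genes. They are the receptors *Nr1h3* and *Nr1h2*, the exporters *Abca1*, *Abcg1*, *Abcg5*, *Abcg8* and *Abcb4*, the high-density lipoprotein (HDL) receptor *Scarb1*, and the lysosomal sterol proteins *Npc1* and *Npc2*. The *Usp21* KO mice are constitutive knockouts in which Cre recombinase removed exons 3 and 4 of *Usp21*, a gene for a ubiquitin-specific protease. The targeted allele came from 129/Sv embryonic stem cells, and KO and WT littermates of a mixed B6 and 129/Sv background were studied at 10 to 11 weeks of age on a normal diet. RNA of whole liver was sequenced, and WT replicates 2 and 3 and *Usp21* KO replicates 1 and 3 were analysed. Each group thus holds 2 libraries, and the sex of the mice and the hour of sampling are not given in the sources used here. *Usp21* lies on chromosome 1, where KO mice of this kind can keep 129-derived sequence around the targeted gene. None of the 10 members lies on that chromosome. On a mixed background such sequence can also differ between mice on other chromosomes, and its part was not tested.

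LXRα (*Nr1h3*) and LXRβ (*Nr1h2*) are nuclear receptors that bind oxidised cholesterol (oxysterols) and act on DNA together with a retinoid X receptor. When sterol is plentiful they switch on exporters: ABCA1 and ABCG1 load cholesterol onto HDL, while ABCG5 and ABCG8 form a single transporter that moves sterol into bile. The same receptors also induce *Srebf1*, the regulator of fatty acid synthesis, so LXR activity joins sterol disposal to lipogenesis in the liver.

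*Abca1* is the member whose regulatory sequence is best known. Its promoter is shown because it holds letters that match a relaxed form of the LXR element. LXR and its partner bind repeats of a hexamer spaced by 4 bases (DR4). Promoter windows from 250 bases before to 50 bases after the RefSeq start (build GRCm38.p6) were found for 7 of the 10 members, in 9 windows. *Abcg1*, *Scarb1* and *Npc1* had no window and were not searched. A relaxed DR4 pattern, GGTNA followed by GGTCA after 5 bases of any kind and searched on both strands, was present in the promoter of 1 member, *Abca1*, and in 0.207% of all 32851 promoter windows. The 30-base stretch at chr4:53159940-53159969, printed 5′ to 3′ on the reverse strand, from which *Abca1* is transcribed, begins its match 67 bases before the start site, and the match itself reads on the opposite strand.
Abca1 promoter, with the DR4 match in capitals: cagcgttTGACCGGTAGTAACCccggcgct
Abca1 promoter, with the E-box in capitals: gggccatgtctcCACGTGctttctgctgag
The E-box CACGTG, a site for several helix-loop-helix factors, begins 147 bases before the same start, in the stretch chr4:53160025-53160054. It occurred in 7.15% of all windows and in the window of no other matched member. A strict DR4 pattern, AGGTCA repeated after 4 bases of any kind, and the sterol regulatory element, ATCAC followed directly by CCCAC, were in the window of 0 members and in 0.0152% and 0.0913% of all windows. A match describes letters and is not evidence that a factor binds there.

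A second sequence feature of the group lies in the messenger RNA. The microRNA miR-33, encoded within an intron of *Srebf2*, is known to repress sterol exporters, and its sequence (RefSeq, GRCm38.p6) is shown with the stretches of the 3′ UTRs of *Abca1* and *Abcg1* that pair with its seed. In the microRNA the capitals mark the seed (bases 2 to 8), and in the targets they mark the complement CAATGCA.
mmu-miR-33-5p: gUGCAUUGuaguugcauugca
Abca1 site, chr4:53033783-53033812, reverse strand: tattCAATGCAATGCActtCAATGCAacga
Abcg1 site, chr17:31114996-31115025, forward strand: gcaacgCAATGCAacgCAATGCAgacagtg
The *Abca1* stretch holds 3 matches, of which the first 2 overlap, and the *Abcg1* stretch holds 2. The longest annotated 3′ UTRs of the other 8 members held 0 matches. Of the 21007 genes with an annotated 3′ UTR, 7.11% held at least 1 match, and 15 genes held 3 or more. Among 3′ UTRs of 2000 to 5000 bases, the range that holds those of *Abca1* (3156 bases) and *Abcg1* (3703 bases), the share was 15.1%. The microRNA itself was not measured. Its host *Srebf2*, the gene of the main activator of sterol synthesis, was named here after its values were seen. It had 8.23 and 9.07 TPM (WT) against 7.31 and 6.69 TPM (KO), a log2 fold change of -0.27 (SE 0.21, adjusted p = 0.639 from limma). Of all tested genes, 10.9% were likewise lower in both KO libraries than in both WT libraries. A link between *Srebf2*, the microRNA and the exporters was not tested.

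Abundance is given in TPM, a share of all transcripts of a library that is corrected for transcript length and so allows levels of different genes to be compared. It does not record how many reads lay behind a value, and the depth is therefore unknown. The authors' second table, of reads counted with HTSeq and scaled as CPM, listed 8 of the 10 members at 0 in all 4 libraries. *Scarb1* was among them, although it was the most abundant member in TPM. In that table *Abcg8* stood on 4, 4, 4 and 7 reads and *Npc1* on 0, 2, 2 and 3 reads in WT replicates 2 and 3 and KO replicates 1 and 3. Of 682 genes found in both tables that reached 100 TPM in each library, 428 were at 0 there throughout, and the comparisons were made on TPM. The targeted gene *Usp21* had 4.07 and 6.29 TPM (WT) against 1.64 and 2.93 TPM (KO).

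The hepatocyte markers were abundant in every library, with *Alb*, *Ttr*, *Serpina1c*, *Apoa1*, *Cyp3a11*, *Hnf4a* and *Tat* together at 75821 and 60200 TPM (WT) against 61719 and 54076 TPM (KO). Of these 7, 3 lay higher in both KO libraries and 1 lower, where 34.4% of all tested genes lay higher and 10.9% lower in this way, and *Apoa1* also stands in the HDL list used further on. In whole liver, fewer cells of a type and less RNA per cell cannot be told apart. Bile duct markers (*Krt19*, *Krt7*, *Epcam*, *Sox9*, *Spp1*) summed to 14.6 and 15.9 TPM (WT) against 37.9 and 24.5 TPM (KO), and 2 of the 5 lay higher in both KO libraries, near the share of all tested genes. *Spp1* made up most of this sum, with 13.2 and 12.7 TPM (WT) against 33.4 and 20.7 TPM (KO), and *Krt7* was listed at 0 in a library. Stellate cell markers summed to 53.4 and 45.0 TPM (WT) against 83.5 and 62.6 TPM (KO), with 2 of 6 higher in both KO libraries, again near the share of all tested genes. Kupffer cell markers overlapped in sum (102 and 114 TPM in WT, 57.4 and 151 TPM in KO), as did those of sinusoidal endothelium (62.6 and 46.6 TPM in WT, 52.2 and 72.3 TPM in KO). Blood cell markers summed to 556 and 535 TPM (WT) against 491 and 389 TPM (KO), with 3 of 6 lower and 1 higher in both KO libraries, beside the 10.9% and 34.4% of all tested genes. The counts of bile duct, stellate cell and blood markers include genes under the mean of 1 TPM required for testing. Among tested markers, 1 of 2 for bile duct and 2 of 4 for stellate cells lay higher in both KO libraries. Of 3 tested blood markers, 2 lay lower and 0 higher. The part of these marker differences in the results that follow was not tested.

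Among the 10 genes, *Scarb1* was the most abundant, at 51.3 to 108 TPM, and *Abcg1* the least, at 0.595 to 0.656 TPM. The order by mean level was *Scarb1*, *Abcb4*, *Nr1h3*, *Abcg8*, *Abcg5*, *Npc1*, *Npc2*, *Nr1h2*, *Abca1* and *Abcg1*. Neighbours in this order were separated in all 4 libraries without overlap of their ranges at 3 places: *Nr1h3* lay above *Abcg8*, *Npc2* above *Nr1h2*, and *Abca1* above *Abcg1*. From *Abcg8* to *Npc2* the ranges of neighbours overlapped and each order held in 3 of 4 libraries, so neighbours among these 4 genes could not be ranked, while *Abcg8* lay above *Npc2* in all 4 libraries. *Abca1*, at 8.12 TPM on average, lay 12.8 times above *Abcg1*. The mean of *Abcg1* was under the 1 TPM required for testing, and 9 members were tested.

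**Figure D1:**
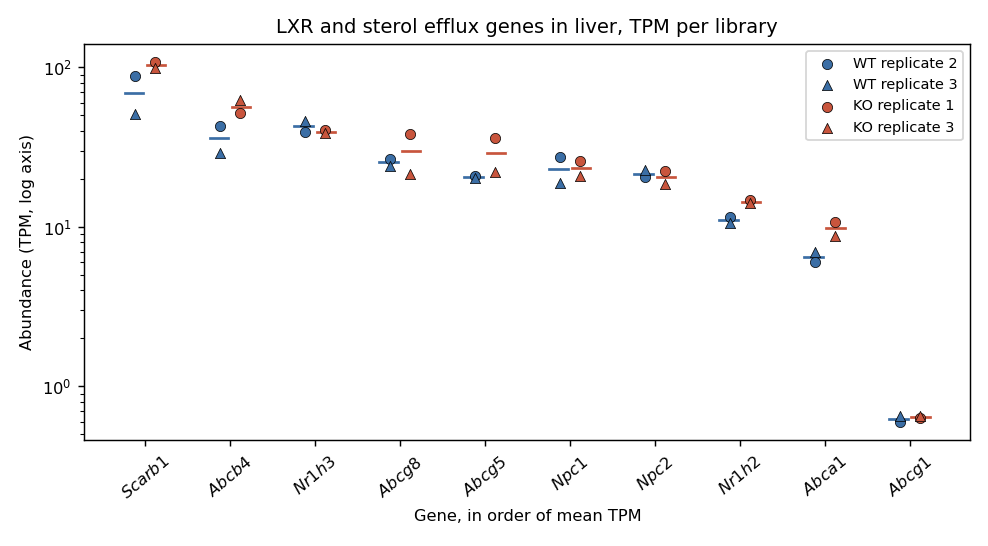
Abundance of each gene in TPM on a log axis, with a point for each library (blue WT, red *Usp21* KO, circles and triangles for the 2 libraries of a group) and short lines for group means. For *Scarb1*, *Abcb4*, *Abcg5*, *Nr1h2* and *Abca1* both red points lie above both blue points, while *Abcg1* lies apart from the rest at 0.595 to 0.656 TPM.

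The comparison of the genotypes asked whether genes of sterol export differ in livers without intact *Usp21*. Means of log2(TPM + 1) were higher in KO for 7 of the 9 tested members and lower for 2 (higher for 66.7% of all tested genes), and for 5 members both KO libraries lay above both WT libraries. This arrangement was found for 34.4% of all 9581 tested genes. For no member did both KO libraries lie below both WT libraries, compared with 10.9% of all tested genes. The median log2 fold change was 0.35 over the 9 members and 0.15 over all tested genes. Without KO replicate 1 these medians were 0.10 and 0.084, with 5 of the 9 members higher. None of the members passed the adjusted threshold of 0.05 in limma with Benjamini-Hochberg adjustment, which 0.0835% of all tested genes passed. An unadjusted p under 0.05 was found for 1 member and for 10.5% of all tested genes, and 0 members differed at least 2-fold, compared with 3.68% of all tested genes. The groups did not overlap for 5 of the 9 members and for 45.3% of all tested genes, and 0 members passed the adjusted threshold as higher in KO, compared with 0.0522% of all tested genes. In edgeR and DESeq2 on the reads of the CPM table, 0 of the 2 members that could be tested passed an adjusted or an unadjusted p of 0.05. Of all 5146 genes tested there, 12 passed the adjusted threshold in edgeR and 1 in DESeq2. The 2 members stood on 0 to 7 reads per library, too few for these tests to decide whether they differ. For 1 gene measured in 2 against 2 libraries, an exact permutation test cannot give a p below 0.333.

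The receptors stand first, since they sense the sterol. *Nr1h3*, the LXR isoform that prevails in hepatocytes, had 39.2 and 46.4 TPM (WT) against 40.3 and 38.8 TPM (KO). The groups overlapped, and the WT libraries differed from each other by more than the KO libraries did. Its log2 fold change was -0.11 (SE 0.18, 95% confidence interval -0.55 to 0.33, adjusted p = 0.834 from limma). *Nr1h2*, the isoform expressed in most tissues, had 11.5 and 10.6 TPM (WT) against 14.8 and 14.0 TPM (KO). Both KO values exceeded both WT values, with 11.1 ± 0.640 and 14.4 ± 0.529 TPM (SD, n = 2 per genotype). The log2 fold change of *Nr1h2* was 0.35 (SE 0.19, interval -0.12 to 0.83, adjusted p = 0.524 from limma), and it lay between 0.30 and 0.41 when each library was left out in turn and at 0.23 with upper quartile scaling. That scaling put *Nr1h3* at -0.24. *Nr1h3* lies on chromosome 2 (91184061 to 91202834, GRCm38) and *Nr1h2* on chromosome 7 (44549616 to 44553951), both on the reverse strand.

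Of the exporters that feed HDL, *Abca1* (chromosome 4, 53030787 to 53159895), which transfers cholesterol and phospholipid to lipid-poor apolipoprotein A-I, had 5.98 and 6.94 TPM (WT) against 10.8 and 8.76 TPM (KO). Both KO libraries exceeded both WT libraries, and the ratio of mean TPM was 1.51. On the log2(TPM + 1) scale, which understates the change of a gene at this level, the difference was 0.53 (SE 0.23, interval -0.03 to 1.09, unadjusted p = 0.0607 and adjusted p = 0.479 from limma). It was 0.39 without KO replicate 1, 0.43 without WT replicate 2 and 0.41 when the libraries were scaled to an equal upper quartile. *Abca1* is the gene with both the DR4 match and the 3 miR-33 matches shown above. *Abcg1* (chromosome 17, 31057675 to 31117988), which passes sterol to mature HDL and is prominent in macrophages, had 0.595 and 0.656 TPM (WT) against 0.634 and 0.650 TPM (KO). Both KO values lay between the WT values, with a log2 fold change of 0.01 in a fit without the filter on low values (SE 0.18, interval -0.44 to 0.47). Near 0.6 TPM this scale is compressed, and the ratio of mean TPM was 1.03.

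*Scarb1* (chromosome 5, 125277087 to 125341094) encodes SR-BI, the receptor through which hepatocytes take up cholesteryl ester from HDL. It had 87.9 and 51.3 TPM (WT) against 108 and 99.4 TPM (KO), or 69.6 ± 25.9 and 104 ± 6.16 TPM (SD, n = 2). The KO libraries were both higher, but the WT libraries lay farther apart than the lower KO library lay from the higher WT library. The log2 fold change was 0.62 (SE 0.28, interval -0.07 to 1.31, unadjusted p = 0.0711 and adjusted p = 0.491 from limma). WT replicate 3 carried much of this value, which was 0.24 without it and 1.00 without WT replicate 2. *Pdzk1*, which encodes the scaffold that holds SR-BI at the cell surface, had 22.3 and 21.5 TPM (WT) against 26.0 and 25.5 TPM (KO), a log2 fold change of 0.22 (SE 0.17).

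*Abcg5* (84658234 to 84683011, reverse strand) and *Abcg8* (84676302 to 84700333, forward strand) are neighbours on chromosome 17 that point away from each other. Their nearest RefSeq starts are 110 bases apart, and in the GENCODE annotation the genes share 6710 bases on opposite strands, so reads there could be divided between them if strand was not used, which is not given in the sources used here. *Abcg5* had 20.9 and 20.3 TPM (WT) against 36.0 and 22.1 TPM (KO). Both KO libraries were higher, KO replicate 3 only by a small margin, and the log2 fold change of 0.44 (SE 0.27, interval -0.22 to 1.10, adjusted p = 0.561 from limma) was 0.10 without KO replicate 1 and 0.78 without KO replicate 3. *Abcg8* had 26.8 and 24.1 TPM (WT) against 38.4 and 21.6 TPM (KO). The highest and the lowest value of *Abcg8* were both in KO, and its log2 fold change of 0.18 (SE 0.30, adjusted p = 0.836 from limma) became -0.23 without KO replicate 1. Within a library the 2 genes stayed close: the ratio of *Abcg5* to *Abcg8* was 0.779 and 0.841 in WT and 0.937 and 1.02 in KO.

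*Abcb4* (chromosome 5, 8893717 to 8959231) encodes the flippase that delivers phosphatidylcholine to bile, where it joins bile salts and sterol in mixed micelles. It had 43.0 and 29.3 TPM (WT) against 51.6 and 62.0 TPM (KO), or 36.1 ± 9.70 and 56.8 ± 7.38 TPM (SD, n = 2). The KO values were both the higher ones, and *Abcb4* was the 1 member with an unadjusted p under 0.05. Its log2 fold change was 0.66 (SE 0.24, interval 0.06 to 1.26, unadjusted p = 0.0359 and adjusted p = 0.464 from limma). It was 0.39 without WT replicate 3, 0.93 without WT replicate 2 and 0.53 with upper quartile scaling. The unadjusted p of *Abcb4* in limma was 0.0862 with upper quartile scaling, 0.0558 without a trend and 0.159 without moderation. With a library left out it ranged from 0.0176 (without WT replicate 2) to 0.189 (without WT replicate 3), and it was also above 0.05 without either KO library (0.0656 without replicate 1, 0.161 without replicate 3). Other members came under 0.05 in its place or beside it, *Nr1h2* without moderation, *Scarb1* without WT replicate 2 and *Abcg5* without KO replicate 3. Of the 31-base stretches of *Abcb4* transcripts, 4.74% also occur in transcripts of another gene, mostly the related *Abcb1a*, the largest such share among the 10 members.

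NPC2 and NPC1 act in sequence to move cholesterol out of the lysosome. *Npc1*, the membrane protein of the pair, had 27.2 and 19.0 TPM (WT) against 25.8 and 20.9 TPM (KO), so that both KO libraries lay between the WT libraries. Its log2 fold change was 0.03 (SE 0.24, interval -0.58 to 0.64). *Npc2* (chromosome 12, 84754562 to 84773152), the soluble sterol carrier, had 20.5 and 22.6 TPM (WT) against 22.3 and 18.7 TPM (KO), a log2 fold change of -0.07 (SE 0.19, interval -0.55 to 0.41). The groups overlapped for both genes. With upper quartile scaling *Npc2* was at -0.20. On the CPM values *Npc1* differed by 2.21 in limma, 1.13 in edgeR and 1.14 in DESeq2, values that rest on its 0, 2, 2 and 3 reads.

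**Figure D2:**
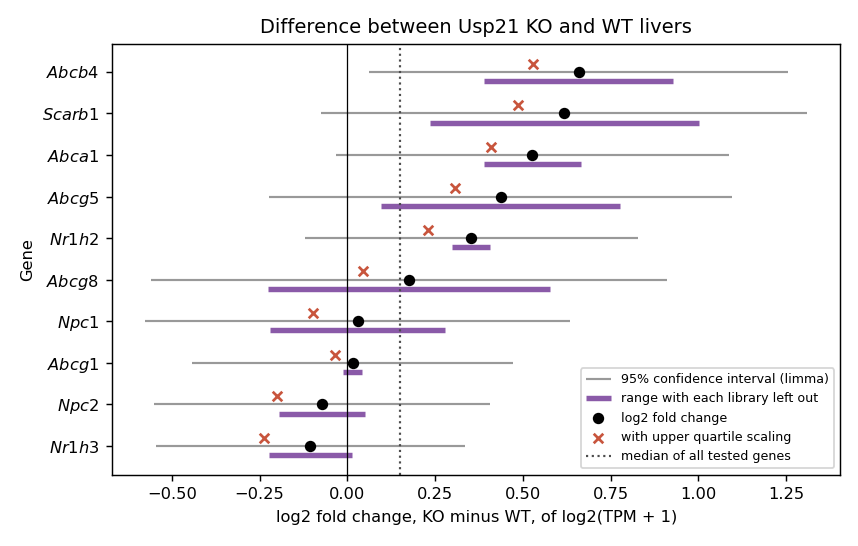
Log2 fold change (KO minus WT, on log2(TPM + 1)) of each gene as a black point, with the 95% confidence interval of limma in grey, the range with each library left out in purple, the value under upper quartile scaling as a red cross, and the median of all tested genes (0.15) as a dotted line. The interval of *Abcb4* (0.06 to 1.26) alone lies above 0. The purple ranges of *Abcb4*, *Scarb1*, *Abca1*, *Abcg5* and *Nr1h2* lie above 0 while the other 5 cross it. For the genes named, both KO libraries lay above both WT libraries, so their purple ranges could not cross 0.

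A shift of all genes of a library moves each fold change but leaves ratios within a library untouched, so 6 pairs of members were compared by the log2 ratio of their TPM. The ratio of *Nr1h3* to *Nr1h2* was 3.40 and 4.37 in WT and 2.72 and 2.77 in KO. It was lower in both KO libraries, by a difference of -0.49 between mean log2 ratios. The ratio of *Abca1* to *Abcg1* was 10.1 and 10.6 in WT and 17.0 and 13.5 in KO, a difference of 0.55. *Abcg1* lay under the 1 TPM required for testing, at 0.595 to 0.656 TPM. The ratio therefore largely repeats the difference in *Abca1*. For *Abcg5* to *Abcg8* the difference was 0.27. These 3 pairs did not overlap between genotypes, each with an exact two-sided permutation p of 0.333, the smallest that 2 against 2 allows (0.667 after Benjamini-Hochberg adjustment over the 6 pairs). The ratio of *Npc1* to *Npc2* (0.839 to 1.33), of *Scarb1* to *Abca1* (7.39 to 14.7) and of *Abcb4* to *Abcg8* (1.21 to 2.87) overlapped between genotypes.

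**Figure D3:**
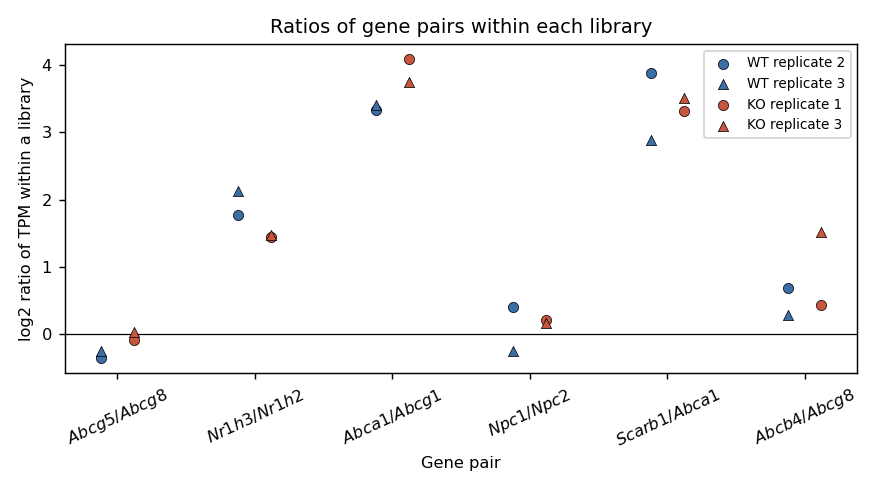
Log2 ratio of TPM within each library for 6 gene pairs, with a point per library (blue WT, red *Usp21* KO). The red points lie above the blue points for *Abcg5*/*Abcg8* and *Abca1*/*Abcg1* and below them for *Nr1h3*/*Nr1h2*, and the points of the other 3 pairs overlap.

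Other genes regulated by LXR were set beside the members, from a list of 14 of which 13 were tested. Of these, the mean was higher in KO for 6 and lower for 7, the median difference being -0.01, and 2 had an unadjusted p under 0.05 (8.45% of all tested genes did so as higher and 2.04% as lower in KO). *Srebf1*, which encodes SREBP-1, had 58.1 and 64.3 TPM (WT) against 27.3 and 20.7 TPM (KO). The KO values were both the lower ones, the opposite order from *Abca1*, with a log2 fold change of -1.32 (SE 0.20, unadjusted p = 0.000808, adjusted p = 0.242 from limma). *Lpl*, the lipase that clears triglyceride from lipoproteins, had 4.73 and 4.60 TPM (WT) against 30.9 and 9.93 TPM (KO), with a log2 fold change of 1.72 (SE 0.50, adjusted p = 0.464 from limma). Its value was 0.95 without KO replicate 1. *Cyp7a1*, the rate-limiting enzyme of bile acid synthesis, had both its highest and its lowest value in KO (19.5 and 4.31 TPM, compared with 11.2 and 14.3 TPM in WT). *Mylip*, whose product degrades the LDL receptor, had 2.02 and 1.00 TPM (WT) against 1.81 and 3.81 TPM (KO) and overlapped as well. *Fasn* and *Scd1*, which make fatty acids and desaturate them, also overlapped, with log2 fold changes of -1.12 (SE 0.71) and 0.76 (SE 0.44). *Fasn* was at -0.070 without WT replicate 3 and -2.18 without WT replicate 2, and *Scd1* at 0.19 without WT replicate 2.

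The partners and coregulators of LXR were all tested (12 genes), with 9 higher and 3 lower and a median of 0.18. Over all tested genes 66.7% were higher in KO, for comparison with the counts of this and the other lists. An unadjusted p under 0.05 in limma was found for 2 of these 12, beside 10.5% of all tested genes. In the oxysterol, HDL and sterol movement lists below it was found for 1 of 4, 1 of 7 and 2 of 14. *Rxra*, the main retinoid X receptor of liver, had a log2 fold change of 0.04 (SE 0.23). *Rxrg*, a further partner, had 3.53 and 3.29 TPM (WT) against 1.43 and 0.914 TPM (KO), a log2 fold change of -1.03 (SE 0.27, adjusted p = 0.464 from limma). It lies on chromosome 1 (167598384 to 167639623), as does *Usp21* (171281945 to 171287991), and an effect of the genotype and one of 129-derived sequence there cannot be told apart. The corepressor *Ncor1* had 13.1 and 21.7 TPM (WT) against 28.4 and 29.8 TPM (KO), with a log2 fold change of 0.75 (SE 0.27, adjusted p = 0.464 from limma). *Nrip1* and *Tbl1xr1*, further cofactors, were above WT in both KO libraries with differences of 0.56 (SE 0.26) and 0.65 (SE 0.28). Without WT replicate 2, *Ncor1* and *Tbl1xr1* each differed by 0.40.

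Of 7 genes that make or remove oxysterols, 4 were tested, with 2 higher and 2 lower and a median of 0.15, the same as that of all tested genes at 2 decimals. *Cyp7b1*, which hydroxylates oxysterols on the way to bile acids, had 100.1 and 70.3 TPM (WT) against 149 and 174 TPM (KO), with a log2 fold change of 0.94 (SE 0.23, adjusted p = 0.458 from limma). Its groups did not overlap. *Cyp39a1*, an oxysterol hydroxylase, and *Hsd3b7*, the next enzyme of bile acid synthesis, differed by 0.33 (SE 0.22) and -0.07 (SE 0.31), and *Cyp27a1*, which makes an oxysterol from cholesterol, by -0.03 (SE 0.18).

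HDL assembly genes showed 3 higher and 4 lower of 7 tested, with a median of -0.15. *Apom*, an HDL apolipoprotein, had 330 and 283 TPM (WT) against 171 and 213 TPM (KO), with a log2 fold change of -0.68 (SE 0.19, adjusted p = 0.464 from limma). *Lcat*, the enzyme that esterifies HDL cholesterol, differed by -0.15 (SE 0.18), and *Apoa1*, the acceptor of ABCA1, by -0.24 (SE 0.33). Among 14 tested genes of lysosomal and cytosolic sterol movement, 6 were higher and 8 lower, with a median of -0.09. *Tmem97*, whose product binds NPC1, had 55.0 and 56.6 TPM (WT) against 38.2 and 36.7 TPM (KO), with a log2 fold change of -0.56 (SE 0.16, adjusted p = 0.464 from limma). *Gramd1a*, an Aster protein that carries sterol from the plasma membrane to the endoplasmic reticulum, differed by 0.77 (SE 0.29), its relative *Gramd1c* by -0.49 (SE 0.24) and the sterol-binding protein gene *Osbp* by 0.41 (SE 0.23).

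The other hepatobiliary transporter and flippase genes complete the route into bile. Of 8 listed, 6 were tested, and in 5 of these each KO value exceeded each WT value, beside 34.4% of all tested genes. *Abcb11*, the bile salt export pump, had 173 and 129 TPM (WT) against 246 and 194 TPM (KO), with a log2 fold change of 0.54 (SE 0.22, unadjusted p = 0.0541, adjusted p = 0.478 from limma). *Abcc2*, which exports conjugated bilirubin, differed by 0.53 (SE 0.18), and *Abcg2*, an exporter of drugs and urate, by 0.63 (SE 0.23). *Tmem30a*, the partner of canalicular phospholipid flippases, had 45.0 and 45.9 TPM (WT) against 77.9 and 68.6 TPM (KO), a difference of 0.67 (SE 0.17, adjusted p = 0.462 from limma). The remaining tested gene, *Slc10a1*, takes up bile salts at the opposite, basolateral face and was lower in each KO library than in either WT library (log2 fold change -0.54, SE 0.23). The value of *Slc10a1* was -0.25 without WT replicate 2, and that of *Abcb11* was 0.33 without WT replicate 3. The median of the 6 was 0.54, and 3 had an unadjusted p under 0.05, all higher in KO (8.45% of all tested genes), while none of the genes in these lists had an adjusted p under 0.05 in limma (0.0835% of all tested genes).

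**Figure D4:**
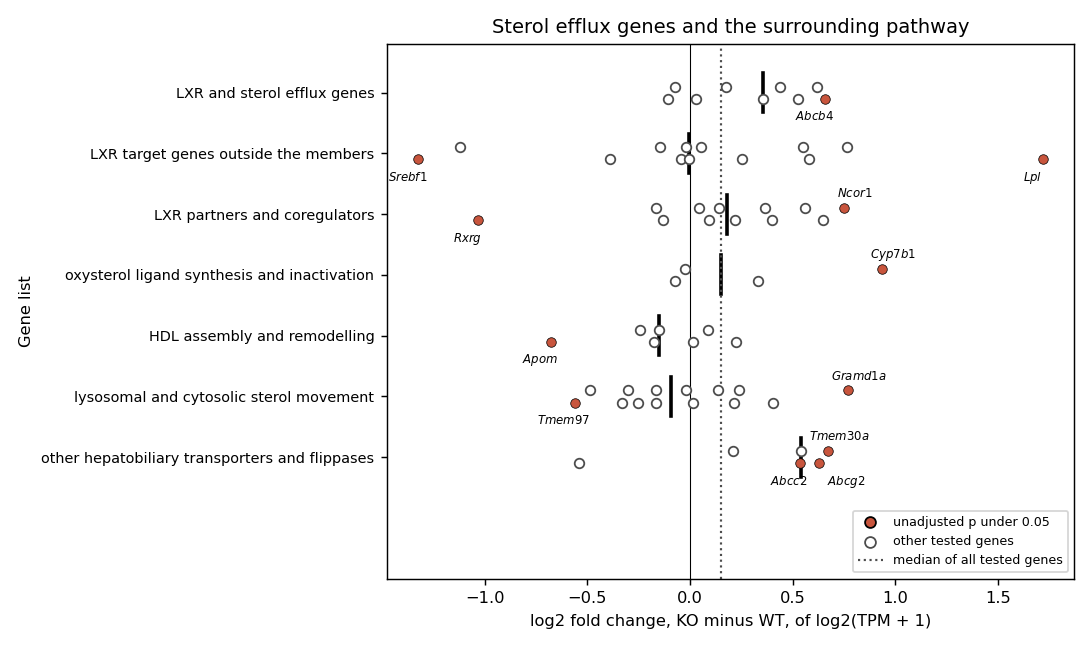
Log2 fold change (KO minus WT) of each tested gene in the group and in 6 surrounding lists, with 1 point per gene, filled where the unadjusted p is under 0.05, a black bar at the median of the list and a dotted line at the median of all tested genes (0.15). The medians of the sterol efflux genes (0.35) and the other hepatobiliary transporters and flippases (0.54, *Slc10a1* included) lie to the right of that line, and *Srebf1* (-1.32) and *Lpl* (1.72) mark the ends of the other LXR targets.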

How the data were processed

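Liver RNA of WT replicates 2 and 3 and *Usp21* KO replicates 1 and 3 was analysed, grouped by label. The authors ran salmon against mm10 and deposited TPM per Ensembl gene. They also deposited reads counted with HTSeq and scaled with TMM factors, a CPM signal whose steps gave 102898 to 148164 whole reads per library (100% of values within 0.02 reads). Log2 versions of both tables (of 4 in all) were not used. Versions and strand setting are not given in the sources used here. A count of 0 in the CPM table allows up to 3 reads (20.0 to 27.7 CPM) if counting error is the only source of zeros. This bound cannot be applied to genes such as *Scarb1*, which were abundant in TPM but at 0 there in all 4 libraries.

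The 9581 genes averaging 1 TPM or more were fitted on log2(TPM + 1) with limma 3.58.1 (trended eBayes, prior degrees of freedom 3.62), two-sided, with Benjamini-Hochberg adjustment over all tested genes. P-values rest on the spread between these libraries, with the variance of each gene drawn towards a trend over all tested genes. They do not measure the spread of a single gene alone. Members, lists and tests were chosen with earlier results of these data known. Named genes are the members, *Usp21*, up to 4 genes of lowest p per list, and *Srebf1*, *Cyp7a1*, *Mylip* and *Abcb11*, and genes named beyond this rule (*Rxra*, *Srebf2*, *Slc10a1*) were chosen after their values were seen. A listed gene of the oxysterol list is not reported here, and the counts and the median of that list are given without it. Alternatives were pseudocounts of 0.1 and 5, other filters, upper quartile scaling, limma without trend or moderation, the CPM table, edgeR 4.0.16 and DESeq2 1.42.0 on the recovered reads, and each library left out. Sequences and 31-base overlaps came from RefSeq (GRCm38.p6) and GENCODE M21 (GRCm38). The script was tested on simulated data.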

Additional observations from a re-analysis of the deposited data

How the results depend on the processing

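Of 76 member log2 fold changes recomputed under alternatives that can move them, 68 kept their sign (a further 40 are unchanged by construction). This count does not measure robustness. For the 5 members whose KO libraries both lay above both WT libraries, leaving out a library could not reverse the sign. No member passed the adjusted threshold under any alternative, which in 2 libraries against 2 says nothing about stability. No paired analysis was possible because the labels give no pairing of KO and WT mice. The median of the tested members lay between 0.10 and 0.53 with each library left out (0.10 without KO replicate 1), and the number changed at least 2-fold between 0 and 1 (*Scarb1*, without WT replicate 2). Of the members, 2 could be tested on the CPM values: the median was 1.25 in limma, 0.75 in edgeR and 0.77 in DESeq2, with 1 member (*Npc1*, on 0 to 3 reads) changed at least 2-fold in each and 0 of 6 LXR targets under an unadjusted p of 0.05. That target count was 1 of 13 without moderation. The shares of all tested genes under an unadjusted p of 0.05 or changed at least 2-fold are given here for the main fit only. The counts under alternatives are therefore not read against a background. Upper quartile scaling moved the median of all tested genes from 0.15 to 0.03 and that of the members from 0.35 to 0.23, and turned *Abcg1* to -0.037 and *Npc1* to -0.10. With a library left out, log2 fold changes spanned -0.22 to 0.012 for *Nr1h3*, -0.012 to 0.042 for *Abcg1*, -0.23 to 0.58 for *Abcg8*, -0.22 to 0.28 for *Npc1* and -0.19 to 0.050 for *Npc2*. Log2 ratio differences spanned -0.22 to 0.44 for *Npc1*/*Npc2*, -0.46 to 0.53 for *Scarb1*/*Abca1* and -0.053 to 1.04 for *Abcb4*/*Abcg8*. Ratios could not be formed in the CPM table, where no pair had both genes above 0. The cause of these shifts was not tested. An arm of 1 library is assumed to vary like the other.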
